A study of Homo sapiens with 6 samples.

Results

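The genes described here are 10 genes of the TGF-beta pathway, chosen by symbol: the ligand genes TGFB1, TGFB2, TGFB3 and INHBA, the receptor genes TGFBR1, TGFBR2 and TGFBR3, the signal transducer genes SMAD3 and SMAD7, and the target gene TGFBI. All 10 were measured, each by a single feature that carries 1 gene symbol, out of 18417 genes with such a feature. They were read on 6 single-colour arrays of total RNA from human prostate epithelial cells. The RWPE-1 group held 3 arrays of untreated immortal cells at passages 18, 38 and 42. The CAsE-PE group held 3 arrays of malignant cells derived from RWPE-1, grown continuously in 5 µM sodium arsenite for 30, 33.5 and 35 weeks. RWPE-1 is a non-tumorigenic line from normal adult prostate epithelium, immortalised with human papillomavirus sequences, so both groups share that background, and both were grown in a serum-free keratinocyte medium supplemented with pituitary extract and EGF. The arrays of a group differ in passage or exposure time, but nothing in the labels marks them as separate cultures. The p-values then set a difference only against the spread between these arrays. That spread holds passage or exposure time together with any technical part. The labels give no passage number for CAsE-PE, so arsenite, transformation and time in culture cannot be told apart.

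TGF-beta ligands are secreted in a latent form, held in the matrix by latent TGF-beta binding proteins and released by integrins or proteases. The active ligand binds the type II receptor TGFBR2, which recruits and activates the type I receptor kinase TGFBR1, and the receptors phosphorylate SMAD2 and SMAD3. These join SMAD4 and act on genes in the nucleus, among them the gene of the inhibitory SMAD7, which turns the pathway down. In normal epithelium, prostate included, TGF-beta restrains growth, and it also induces matrix genes such as TGFBI.

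Values are deposited intensities, or log2 of the intensity plus 1 where a log2 value is named, and every difference is CAsE-PE minus RWPE-1 on that log2 scale with n = 3 arrays per group. Array medians lay between 91.7 and 97.2 intensity units, and the number of arrays limits the precision. Standard errors (SE), 95% confidence intervals and p-values come from a limma fit over all genes, and a gene with a Benjamini-Hochberg adjusted p under 0.05 was called. That rule called 17.7% of all genes, 9.04% higher and 8.71% lower in CAsE-PE. None of the 5 epithelial markers was a dim gene, and 1, CDH1, was called, higher by 0.39 (limma adjusted p = 0.0186). KRT19 was lower by −0.38 without overlap of the groups and was not called (limma adjusted p = 0.0618). KRT8 had log2 means of 11.12 and 11.20, and KRT5, a basal keratin, of 12.05 and 11.93, whereas the basal keratins KRT14 and KRT15 were lower in CAsE-PE, by −1.60 and −1.77. Of 8 fibroblast markers 7 lay in the dimmest 33.3% of genes, called the dim genes here, and their summed intensity was 525 to 550 in RWPE-1 and 517 to 538 in CAsE-PE. All 3 measured luminal prostate markers, all 4 endothelial markers and 3 of 4 leukocyte markers were dim genes as well. The exception was CD68, which fell with CD14, so that 2 of 4 leukocyte markers were lower and their summed intensity was 1182 to 1448 in RWPE-1 and 636 to 928 in CAsE-PE. The part of these markers in the results below was not tested.

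TGFB2 and INHBA fell in CAsE-PE, TGFBI rose, and the other 7 genes did not pass the threshold. TGFB2 was 7.17-fold lower, INHBA 2.83-fold lower and TGFBI 2.76-fold higher. The 3 called genes make 30.0% of the 10, beside 17.7% of all genes. The 10 differences had a median of −0.02, and the median over all genes was −0.06. The directions of TGFB2 and TGFBI were known when the 10 genes were chosen, so these counts describe the list and support nothing further.

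**Figure D1:**
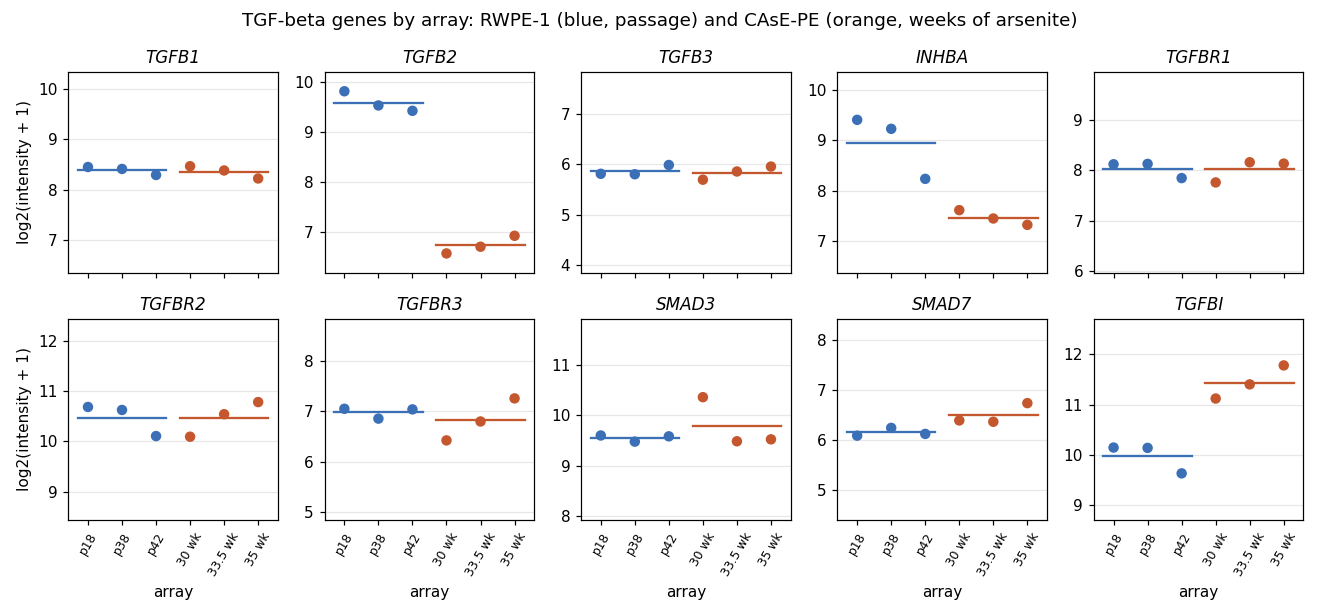
Each panel plots 1 gene, with log2(intensity + 1) on a vertical axis that spans 4 log2 units in every panel and the 6 arrays on the horizontal axis. Blue points are RWPE-1 at passages 18, 38 and 42, orange points are CAsE-PE at 30, 33.5 and 35 weeks, and lines are group means. The groups stand apart for TGFB2, INHBA, TGFBI and, by less, SMAD7, and they overlap for the other 6 genes. Over all genes, the groups did not overlap for 38.9%.

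The promoters are shown for the 3 genes of the list that were called. Each sequence is the 250 bases before the gene's start, from RefSeq on GRCh38.p14, read 5′ to 3′ on the gene's strand. Capitals mark matches to 5 motifs: the E-box CACGTG, the cyclic AMP element core TGACGT, the SMAD element CAGACA, the AP-1 element TGANTCA (these on both strands), and the TATA box TATAAA on the gene's strand only.
TGFB2, chr1:218345086-218345335, plus strand: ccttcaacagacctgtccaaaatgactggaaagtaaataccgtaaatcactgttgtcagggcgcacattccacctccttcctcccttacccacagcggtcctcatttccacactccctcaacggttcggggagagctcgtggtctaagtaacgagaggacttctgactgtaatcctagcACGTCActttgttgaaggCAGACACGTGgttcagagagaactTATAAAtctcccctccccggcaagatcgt
INHBA, chr7:41703091-41703340, minus strand: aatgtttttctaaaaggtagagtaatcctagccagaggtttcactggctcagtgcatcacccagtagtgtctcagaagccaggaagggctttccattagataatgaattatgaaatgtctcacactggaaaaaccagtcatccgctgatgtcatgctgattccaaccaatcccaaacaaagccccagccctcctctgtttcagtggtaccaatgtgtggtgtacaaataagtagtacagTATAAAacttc
TGFBI, chr5:136028738-136028987, plus strand: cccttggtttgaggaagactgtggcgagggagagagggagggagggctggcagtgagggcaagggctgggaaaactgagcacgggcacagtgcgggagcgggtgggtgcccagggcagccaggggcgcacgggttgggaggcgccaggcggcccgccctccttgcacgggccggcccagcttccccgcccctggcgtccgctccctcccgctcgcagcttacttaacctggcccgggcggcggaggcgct

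The TGFB2 window held 4 of the 5 motifs, and its SMAD element, at base 198 of the window, overlaps its E-box, at base 202. The INHBA window held the letters TATAAA, beginning at −11 from the gene's start, against −29 in TGFB2. The TGFBI window held none of the 5. Over all 35116 windows of this length in the RefSeq table, the E-box was in 6.34%, the cyclic AMP element core in 7.10%, the SMAD element in 13.6%, the AP-1 element in 6.57% and the TATA box in 6.80%. The 10 genes have 25 such windows, because some have several annotated starts. Of those, 4 held the SMAD element, in TGFB2, SMAD3 and TGFBR1, and 3 held the E-box, in TGFB2, TGFB3 and SMAD3. A match is a stretch of letters and not a measured site, and the arrays do not measure binding.

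Among the ligand genes, TGFB2 (feature 7909789, chromosome 1), which encodes a TGF-beta isoform that binds its receptors with the help of betaglycan, fell most. The RWPE-1 arrays, here and below in order of passage, read 897, 738 and 685 intensity units, and the CAsE-PE arrays, in order of exposure time, read 94.9, 104 and 121. Every CAsE-PE array was below every RWPE-1 array. The log2 mean went from 9.59 ± 0.20 (SD) to 6.74 ± 0.18, a difference of −2.84 (SE 0.14, 95% interval −3.15 to −2.53, limma adjusted p = 4.58e-06). The fall held with each array left out in turn, when it ranged from −2.94 to −2.73.

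TGFB2 lies among genes that were lower too. Of its 24 nearest genes in chromosome order that are not dim genes, 14 fell, 0 rose and 22 differences were negative. Over all genes, dim ones included, 8.71% fell, 9.04% rose and 59.5% of differences were negative. Their median was −0.57, and the single differences ranged from −1.16 in PTPN14 to 0.60 in DUSP10. The closest measured neighbours before it, GPATCH2 and RRP15, fell by 0.49 and 0.86, and of those after it BPNT1 fell by 0.62, while EPRS1 differed by −0.35 (limma adjusted p = 0.0550). With the neighbours' median taken off, TGFB2 was still lower by −2.28 (adjusted p = 1.74e-05 for that difference). Copy number was not measured, and its part in the lower level was not tested.

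**Figure D2:**
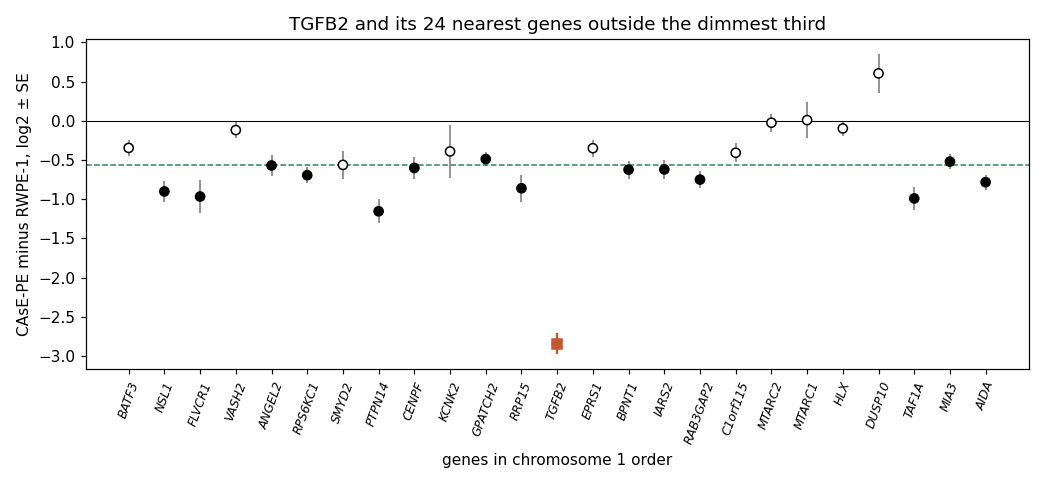
Log2 differences (CAsE-PE minus RWPE-1, bars are SE, n = 3 per group) of TGFB2 (orange square) and its 24 nearest genes in chromosome 1 order; filled points were called and open points were not. The dashed line is the neighbours' median of −0.57, and TGFB2 at −2.84 lies below each of the 24.

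TGFB1 (feature 8037005, chromosome 19), the most widely studied isoform, did not differ beyond the spread between arrays. Its intensity was 349, 340 and 313 in RWPE-1 and 353, 333 and 298 in CAsE-PE, so that the groups overlapped almost wholly. The log2 difference was −0.03 (SE 0.11), with a 95% interval from −0.27 to 0.21, and its sign turned when neighbouring genes were allowed for or single arrays were left out. TGFB3 (feature 7980316, chromosome 14), the third isoform, was dim, at 55.2, 54.8 and 62.5 in RWPE-1 and 50.8, 57.0 and 61.1 in CAsE-PE. It was the only gene of the 10 whose mean over the 6 arrays was among the dim genes. No detection call was at hand to tell such a level from background. Its difference was −0.03 (95% interval −0.28 to 0.22), and it was 0.10 after quantile normalisation.

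INHBA (feature 8139207, chromosome 7) encodes the subunit that forms activin A, a ligand that signals through its own receptors to the same SMADs. Its intensity was 678 and 599 at passages 18 and 38 and 299.9 at passage 42, against 194, 173 and 159 in CAsE-PE. The groups did not overlap, though the passage 42 array lay nearer to CAsE-PE than to passage 18 in intensity. The log2 mean went from 8.96 ± 0.63 to 7.46 ± 0.15, a difference of −1.50 (SE 0.26, 95% interval −2.10 to −0.90, limma adjusted p = 0.00470). Without the passage 42 array the difference was −1.86, and without the passage 18 array it was −1.27. Against a 1.5-fold change in place of 0 the call was lost (limma adjusted p = 0.135).

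The receptor genes showed no difference past the threshold. TGFBR2 (feature 8078350, chromosome 3), the ligand-binding receptor kinase, had intensities of 1647, 1581 and 1102 in RWPE-1 and 1093, 1491 and 1762 in CAsE-PE. Both groups had a log2 mean of 10.47, with SDs of 0.32 and 0.35, and the 95% interval of the difference ran from −0.46 to 0.46. The spread within each group was therefore the main feature of TGFBR2, with the lowest values at passage 42 and at 30 weeks.

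TGFBR1 (feature 8156826, chromosome 9), the signalling kinase, had intensities of 277, 279 and 229 in RWPE-1 and 216, 285 and 280.04 in CAsE-PE. The log2 difference was −0.01 (95% interval −0.33 to 0.30), and its sign turned after centring on array medians. TGFBR3 (feature 7917649, chromosome 1) encodes betaglycan, the coreceptor that presents TGF-beta to the other receptors. Its intensities were 132, 115 and 130.4 in RWPE-1 and 84.6, 110.2 and 152 in CAsE-PE, so the CAsE-PE arrays lay on both sides of RWPE-1. The difference was −0.16 (SE 0.19, 95% interval −0.58 to 0.27), and its sign turned without the 30-week array, to 0.05. With intervals of this width the receptor genes are not shown to be equal between the groups.

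The SMAD genes were somewhat higher on average and neither was called. SMAD3 (feature 7984364, chromosome 15), which carries the signal to the nucleus, had intensities of 776, 713 and 767 in RWPE-1 and 1318, 716 and 736 in CAsE-PE. The 30-week array alone was high, and the later CAsE-PE arrays lay within the RWPE-1 range. The log2 difference was 0.24 (SE 0.21, limma adjusted p = 0.466), and it was −0.05 without the 30-week array.

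SMAD7 (feature 8023220, chromosome 18), the inhibitory SMAD and itself a target of the pathway, had intensities of 67.0, 74.7 and 68.7 in RWPE-1 and 82.9, 81.4 and 106 in CAsE-PE. The groups did not overlap, as was so for 38.9% of all genes. All 3 RWPE-1 arrays lay below the log2 value of 6.25 that bounds the dim genes. That bound is a rank and not a detection limit, so whether SMAD7 was above background in RWPE-1 was not tested. The difference was 0.35 (SE 0.12, 95% interval 0.07 to 0.63), with a limma adjusted p of 0.0877 that missed the threshold. It passed after quantile normalisation (0.46, limma adjusted p = 0.0367) and with array weights (0.34, limma adjusted p = 0.0442). The 24 neighbours of SMAD7 had a median difference of 0.42, and with that taken off SMAD7 differed by −0.07.

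TGFBI (feature 8108217, chromosome 5), a secreted matrix protein named for its induction by TGF-beta, rose. Its intensity was 1133, 1128 and 793 in RWPE-1 and 2229.7, 2711 and 3522 in CAsE-PE. The lowest CAsE-PE array was above the highest RWPE-1 array. The log2 mean went from 9.97 ± 0.29 to 11.44 ± 0.33, a difference of 1.46 (SE 0.19, 95% interval 1.03 to 1.90, limma adjusted p = 0.00107). It ranged from 1.29 to 1.62 with 1 array left out, and the call held against a 1.5-fold change (limma adjusted p = 0.0349). Its 24 neighbours on chromosome 5 had a median difference of 0.07.

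**Figure D3:**
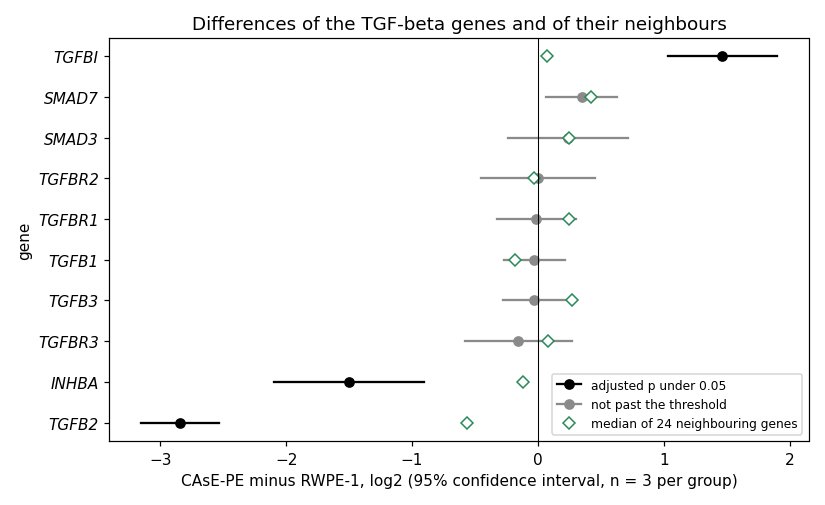
Log2 differences (CAsE-PE minus RWPE-1) of the 10 genes with 95% confidence intervals, n = 3 arrays per group; black genes were called, grey genes were not, and open diamonds are the medians of each gene's 24 neighbours in chromosome order. TGFB2, INHBA and TGFBI lie far from their neighbours' medians, whereas SMAD3 and SMAD7 lie close to theirs, at 0.24 and 0.42.

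Within RWPE-1, the passage 42 array gave the lowest value of the 3 for 6 of the 10 genes, namely TGFB1, TGFB2, INHBA, TGFBR1, TGFBR2 and TGFBI. Over all genes passage 42 was lowest for 34.5% and highest for 45.7%. A slope with passage was fitted within RWPE-1 together with a slope with weeks within CAsE-PE, which leaves 2 residual degrees of freedom. The passage slope passed the threshold for 0 of the 10 genes by limma, with 1, INHBA, under an unadjusted p of 0.05. Of all genes 5.82% were under that unadjusted level and 0.0217% were called. INHBA changed by −0.04 per passage (limma adjusted p = 0.814). Without the passage 38 array its slope of −0.05 was called (limma adjusted p = 0.0172), but that fit called 178 genes in place of 4. Its slope is then the difference between 2 single RWPE-1 arrays. The gene's own residual spread comes from CAsE-PE alone, and limma moderates it towards a spread estimated over all genes.

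Within CAsE-PE, the values at 30, 33.5 and 35 weeks stood in ascending order for TGFB2, TGFB3, TGFBR2, TGFBR3 and TGFBI, and in descending order for TGFB1 and INHBA. The 33.5-week array was the lowest of the 3 for 20% of the 10 genes and the highest for 10%, beside 27% and 37.7% of all genes. TGFBR2 went through log2 values of 10.09, 10.54 and 10.78, TGFBR3 through 6.42, 6.80 and 7.26, and TGFBI through 11.12, 11.40 and 11.78. SMAD3 went from 10.36 at 30 weeks to 9.49 and 9.53. These 4 genes had unadjusted p-values under 0.05 for the slope with weeks in the limma fit, as did 11.3% of all genes. None was called, with a lowest adjusted p of 0.120, beside 0.25% of all genes called. The 3 exposure times are single arrays, so an exposure effect and the spread between arrays cannot be told apart.

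The other genes of the pathway were taken from 7 lists, of which 126 genes were measured. Of these 13 rose and 20 fell, 10.3% and 15.9%, beside 9.04% and 8.71% of all genes. The median difference was −0.15, against −0.06 over all genes. These counts moved with the arrays: without the passage 38 array 6 rose and 10 fell. Without the passage 18 or the 33.5-week array 12 fell.

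**Figure D4:**
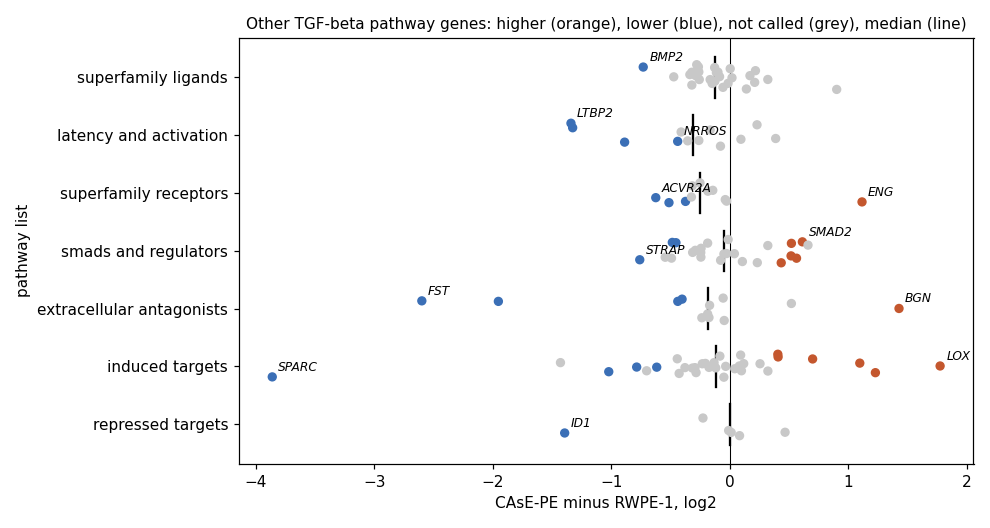
Each point is 1 gene of a pathway list, placed by its log2 difference (CAsE-PE minus RWPE-1) on the horizontal axis, with called rises in orange, called falls in blue and other genes in grey; vertical scatter has no meaning, and black lines are list medians. The largest fall is SPARC at −3.86 and the largest rise LOX at 1.77, both in the list of induced targets.

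Genes that hold TGF-beta latent or release it included falls and no rises. Among the 12 measured were 4 falls (33.3%, beside 8.71% of all genes), 0 rises and 8 genes without a call, and the median was −0.31. LTBP2, a latent TGF-beta binding protein, went from intensities of 563, 469 and 258 to 157, 162 and 163 (difference −1.34, SE 0.24, limma adjusted p = 0.00537). Passage 42 was again the RWPE-1 array nearest to CAsE-PE. LTBP1, of the same family, fell by 0.89 (SE 0.15) to the level of dim genes in CAsE-PE, and NRROS, which anchors latent TGF-beta on cells, fell by 0.44 (SE 0.10). ITGB6, the epithelial integrin subunit that releases active ligand, was lower by −1.33 (SE 0.33). It was no longer called when the passage 18 array was left out (limma adjusted p = 0.0701), the passage 38 array (0.0839), the 30-week array (0.0529) or the 33.5-week array (0.0595). The call of NRROS was lost without the passage 38 or the 35-week array (limma adjusted p = 0.0844 and 0.0599). Leaving out single arrays left 2 to 4 falls in the list, and without the passage 42 array 1 member rose.

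Among the 126 genes, the deepest falls after that of SPARC were in extracellular antagonists of the family. Among the 12 measured were 4 falls (33.3%), 1 rise (8.33%) and 7 genes without a call, beside 8.71% lower and 9.04% higher of all genes. FST, which encodes follistatin, the binding protein that blocks activin, went from intensities of 2017, 2199 and 831 in RWPE-1 to 263, 302 and 207 in CAsE-PE (difference −2.60, SE 0.33, limma adjusted p = 0.000877). The ligand gene INHBA and the antagonist gene FST were thus both lower, and both had passage 42 as the lowest RWPE-1 array. FSTL1, a follistatin-like protein, fell by 1.95 (SE 0.22), and 3 further calls were small or rested on single arrays. GREM1, a BMP antagonist and a dim gene, was lower by −0.40 and lost its call after quantile normalisation (limma adjusted p = 0.0601) or without the passage 18, passage 38 or 35-week array. TWSG1 was lower by −0.44 and kept its call with 1 of the 6 arrays left out, the 35-week array. BGN, the proteoglycan biglycan, was higher by 1.43 (SE 0.40) with intensities of 1264, 320 and 568 in CAsE-PE against 195 to 268, and its call was lost without any single RWPE-1 array or the 35-week array (highest limma adjusted p = 0.122). Without the 30-week array the BGN difference was 0.91. The call was also lost after quantile normalisation (0.0586), with a pseudocount of 16 (0.0543) and with a variance trend (0.0690), all limma adjusted p-values.

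Among 11 measured receptors of the wider family were 3 falls (27.3%), 1 rise (9.09%) and 7 genes without a call, and 6 of the 11 were dim genes. Over all genes 8.71% were called lower and 9.04% higher. Called or not, 10 differences were negative (90.9%, beside 59.5% of all genes), with a median of −0.25. ENG, endoglin, a coreceptor for TGF-beta and BMP ligands, rose from 153, 147 and 158 to 224, 429 and 382 (difference 1.12, SE 0.21, limma adjusted p = 0.00669). ACVR2A, an activin receptor, fell by 0.63 (SE 0.10) and BMPR2, a BMP receptor, was lower by −0.51 (SE 0.12). ACVR1B, the activin type I receptor, was lower by −0.37. The call of BMPR2 was lost without the passage 18, passage 38 or 33.5-week array (highest limma adjusted p = 0.0678), and that of ACVR1B with any array but passage 18 left out (highest limma adjusted p = 0.119). Of 27 further ligand genes of the family, 1 fell (3.7%) and 0 rose, although 14 of them were dim genes. It was BMP2, lower by −0.73 (SE 0.14), on chromosome 20 among neighbours with a median of −0.55, and with that taken off it differed by −0.18.

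SMAD genes and regulators moved both ways. Among the 25 measured were 5 rises (20%), 3 falls (12%) and 17 genes without a call, beside 9.04% higher and 8.71% lower of all genes. SMAD2, the other SMAD that TGF-beta receptors phosphorylate, rose by 0.61 (SE 0.10, limma adjusted p = 0.00334), and SMAD4, the shared partner, was higher by 0.52 (SE 0.11). Both lie on chromosome 18 with SMAD7, and their neighbours had medians of 0.44 and 0.12. With these taken off SMAD2 differed by 0.17 and SMAD4 by 0.40, and the call of SMAD4 was lost without the passage 38 or the 35-week array (limma adjusted p = 0.0639 and 0.0502). The endosomal protein gene ZFYVE16 rose by 0.52, and the ubiquitin ligase genes RNF111 and NEDD4L were higher by 0.56 and 0.43. The neighbours of RNF111 had a median of 0.27, and with that taken off it differed by 0.29 and was not called (adjusted p = 0.144 for that difference). The lower genes were STRAP, a receptor-associated protein (−0.76), FKBP1A, which holds the type I receptor inactive (−0.49), and SMURF1, a ubiquitin ligase for SMADs and receptors (−0.46). The calls of RNF111, NEDD4L, FKBP1A and SMURF1 were lost without the passage 38 array (limma adjusted p = 0.0574, 0.0817, 0.0813 and 0.117), and with others as well. STRAP and FKBP1A lay among neighbours with medians of −0.56 and −0.42. With these taken off, STRAP differed by −0.20 and FKBP1A by −0.07.

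Genes that TGF-beta is known to induce moved in both directions. Among the 33 measured were 6 rises (18.2%), 4 falls (12.1%) and 23 genes without a call, and the median was −0.12. The shares over all genes were 9.04% higher and 8.71% lower. LOX, which cross-links collagen and elastin, rose from 452, 243 and 329.99 to 1077, 1117 and 1214 (difference 1.77, SE 0.20, limma adjusted p = 0.000436). CDKN2B, an inhibitor of cell cycle kinases through which TGF-beta arrests epithelial cells, rose from 224, 237 and 232 to 596, 437 and 466 (1.10, SE 0.13, limma adjusted p = 0.000582). VEGFA (1.23), a growth factor for blood vessels, the integrin subunit gene ITGA5 (0.70) and the tropomyosin gene TPM1 (0.41) were also among the rises. VEGFA had intensities of 500, 452 and 1073 in RWPE-1 and 1692, 1349 and 1371 in CAsE-PE, with passage 42 nearest to CAsE-PE. Its call was lost without the passage 18 or the passage 38 array (limma adjusted p = 0.0568 and 0.0663). TPM1 lost its call in 5 of the 6 fits with 1 array left out (highest limma adjusted p = 0.105). With its neighbours' median taken off it was not called either (adjusted p = 0.174 for that difference).

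SPARC, a secreted matrix protein, went the other way, from 1911, 1750.2 and 1643 to 139, 114 and 110.01, a difference of −3.86 (SE 0.12). COL4A1, a basement membrane collagen, fell by 0.79 (SE 0.10). CCN1 (−1.02) and MMP2 (−0.62, to the level of dim genes) were lower. With single arrays left out, CCN1 lost its call in 4 fits and MMP2 in 5. The highest limma adjusted p-values were 0.125 and 0.139, both without the passage 38 array. Both calls were also lost with a pseudocount of 16 (limma adjusted p = 0.0507 and 0.0610). That of MMP2 was lost after quantile normalisation as well (limma adjusted p = 0.140). The CCN1 groups overlapped, with intensities of 204 at passage 42 and 213 at 30 weeks. Called or not, 20 differences of this list were negative and 13 positive (60.6% negative, beside 59.5% of all genes). Among targets that did not pass, the largest difference was that of ANGPTL4 (−1.43, SE 0.59, limma adjusted p = 0.130). Others, chosen after their values were seen, were CCN2 (−0.38, SE 0.18), FN1 (−0.70, SE 0.38), BHLHE40 (0.32, SE 0.11, groups not overlapping) and TIMP3 (0.25, SE 0.14). Single arrays left out gave 3 to 5 rises and 2 to 7 falls in this list. A slope with passage was called for 1 of the 126 genes, the cadherin gene CDH2, at −0.07 per passage (limma adjusted p = 0.0381). It was not called after quantile normalisation (0.0688), with a pseudocount of 16 (0.104), or without the passage 18 (0.610) or passage 42 array (0.127), all limma adjusted p-values.

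Of 6 genes that TGF-beta represses in epithelial cells, 1 fell (16.7%, beside 8.71% of all genes) and 5 were without a call. ID1, an inhibitor of differentiation factors, fell from 2067, 986 and 2253 to 526, 739 and 648 (difference −1.39, SE 0.28, limma adjusted p = 0.00906). MYC, a growth regulator, differed by 0.08 (SE 0.10), with intensities of 837 to 974 in RWPE-1 and 909 to 993 in CAsE-PE.

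The genes nearest to TGFB2 in pattern over the 6 arrays, by Euclidean distance between log2 values centred on each gene's mean, were HACD4 (distance 0.22, difference −2.73), CTSH (0.40, −2.98) and SNORD113-4 (0.42, −2.76). HACD4 was at the level of dim genes in CAsE-PE and SNORD113-4 in both groups, and whether such levels are above background was not tested. SNORD113-4 went from a log2 mean of 5.86 ± 0.24 (SD) in RWPE-1 to 3.10 ± 0.07 in CAsE-PE. Its groups thus differed, although both were dim. The genes nearest to TGFBI were GATM (distance 0.19, difference 1.48), SCCPDH (0.31, 1.30) and DMXL2 (0.37, 1.37), of which GATM was at the level of dim genes in RWPE-1. HACD4 lies on chromosome 9 and GATM on chromosome 15, so the closest match of each gene was on another chromosome. With 6 arrays in 2 groups, most of such likeness comes from the group difference itself.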

How the data were processed

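The authors deposited intensities (2.25 to 16617, hence linear) of 33252 features on 6 arrays. Per the labels' protocols, RNA was extracted with Trizol and a column kit, and target was made with an Ambion whole-transcript kit and labelled with biotin. How the authors corrected background, summarised and normalised is not given in the sources used here. Features were named through the platform annotation: 19460 had 1 symbol, 1754 several and 12038 were not listed. The feature with the highest mean log2 value stood for each of 18417 genes, and chromosomal order came from the RefSeq table of GRCh38.p14, whose gene coordinates were not otherwise used.

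Values became log2(intensity + 1), which understates changes of dim genes. Groups came from the phenotype label and the comparison used lmFit and eBayes of limma 3.58.1 (R 4.3.3; two-sided, 4 residual degrees of freedom, Benjamini-Hochberg over all genes). Slopes with passage and weeks came from a second limma model. Other steps used Python 3.11.15. The neighbour alternative took the median difference of the 24 nearest genes off, treating it as known. Steps were tested on simulated data. The members, lists and tests were chosen with earlier results of these data known. Named were the 10 genes, up to 5 rises and 5 falls per list, 3 genes nearest in pattern to TGFB2 and TGFBI, the 2 nearest neighbours on each side of TGFB2, and markers. Other named neighbours and targets were chosen after their values were seen. Of the list genes, 13 entries had no feature of 1 symbol used here.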

Additional observations from a re-analysis of the deposited data

How the results depend on the processing

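TGFB2 and TGFBI kept their calls under all 15 alternatives, and INHBA under 14, the exception being the test against a 1.5-fold change (−1.50, limma adjusted p = 0.135), where 1 of the 10 genes was lower. Of these alternatives, averaging all features could not move the differences of the 10 genes, which have 1 feature each. Leaving out the dim genes, the variance trend and the 1.5-fold test could change only p-values and not differences. SMAD7 passed after quantile normalisation (0.46) and with array weights (0.34), each of which left 2 genes higher, and turned to −0.073 with its neighbours' shift taken off. Uncalled genes near 0 changed sign. With the neighbours' shift taken off TGFB1 was at 0.15 and SMAD3 at −0.0082. The same step moved TGFB3 to −0.30 and TGFBR1 to −0.26, without a change of sign or a call (adjusted p = 0.0879 and 0.225 for those differences). After quantile normalisation TGFB3 was at 0.10 and TGFBR2 at −0.048. With array weights TGFB3 was at 0.058, TGFBR2 at −0.017 and TGFBR3 at 0.035, and centring on array medians put TGFBR1 at 0.010. With single arrays left out, differences ranged from −0.083 to 0.039 for TGFB1, −0.091 to 0.040 for TGFB3, −0.11 to 0.12 for TGFBR1, −0.18 to 0.19 for TGFBR2, −0.37 to 0.046 for TGFBR3 and −0.050 to 0.39 for SMAD3. The 126 pathway genes gave 13 rises and 20 falls, which became 20 and 36 with array weights, 1 and 3 against a 1.5-fold change, and 6 to 13 and 10 to 22 with single arrays left out. By list, array weights gave 6 falls in place of 1 among the wider ligands, 8 in place of 3 among SMADs and regulators and 7 in place of 4 among induced targets. Over all genes array weights called 2596 higher and 2746 lower in place of 1665 and 1604. The passage slope was called for 0 to 1 of the 10 genes with single arrays left out. The cause of these changes was not tested. No paired analysis was possible because the labels number no replicates. No detection call came with the intensities used here, and the bound of the dim genes is only a rank. Whether a dim level, such as that of TGFB3 or of SMAD7 in RWPE-1, is above background was therefore not tested.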
